A study of Mus musculus and Homo sapiens with 28 samples.

Results

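The collagens and fibronectin were followed as a group of genes in 2 systems, mouse Renca renal tumours and human 786-O renal carcinoma cells. Members were every gene with a collagen chain symbol (Col, a number, a, a number) plus the fibronectin gene, Fn1, kept where the deposited value was not the same in every library. The rule found 45 members among 29172 varying rows in mouse and 45 among 29353 in human. In mouse, 34 of the 45 reached the mean value of 3 needed for testing, and in human all 45 were tested. Renca cells, a mouse renal carcinoma line, had been mixed with Matrigel, itself a basement membrane extract, and grown under the skin of mice. The 24 tumour libraries were labelled WT untreated (n = 7), WT VE822 (n = 6), SETD2 KD untreated (n = 6) and SETD2 KD VE822 (n = 5), where SETD2 KD is a knockdown of the histone methyltransferase SETD2 and VE822 is an inhibitor of the kinase ATR given by oral gavage at 60 mg/kg on 5 days per week. The labels used here do not state the strain, sex or age of the mice or the knockdown construct. The 786-O cells, a long-established line of human clear cell kidney cancer labelled WT, were left untreated (n = 2) or exposed to 25 nM of a CHK1 inhibitor during 48 h (n = 2), each in 2 experiments. This compound is LY2606368 in the sample labels and LY2603618 in the treatment protocol, and which of them it was could not be settled.

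Collagens are secreted proteins in which a set of 3 chains winds into a triple helix. Types I, III and V form the fibrils of connective tissue and in most tumours are made mainly by fibroblasts, type IV forms the meshwork of basement membranes, type VI makes beaded filaments around cells, and type VII anchors basement membranes to the fibrils beneath. Fibronectin is a secreted adhesive protein that binds integrins and collagen and is made by tumour cells and stromal cells alike.

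Mouse values are regularised log2 values (rlog), which shrink the differences of weakly expressed genes, so differences below are in log2 units on that scale. Per kilobase of exon (rlog minus the log2 of the length in kilobases, mean ± SD over 24 libraries), the highest tested members were Col18a1, a basement membrane collagen whose end fragment is endostatin (10.82 ± 0.18), and Col1a1, the main chain of type I collagen (10.80 ± 1.02). Col4a1 (9.80 ± 0.47), Fn1 (9.70 ± 0.44), Col3a1 (9.64 ± 0.98), Col6a1 (9.52 ± 0.46), Col1a2 (9.40 ± 1.01) and Col4a2 (9.39 ± 0.43) followed. Neighbours among these 8 differed by less than the larger of their SDs. The length was the union of all annotated exons of a gene, and the order depends on that choice. It was 12426 bases for Col1a2 and 6563 for Col1a1, whose mean rlog was 13.04 and 13.51. Col7a1, the type VII chain, stood at rank 22 of 34 (4.88 ± 0.75), and Col24a1, a fibrillar chain of low level, at rank 34 (0.45 ± 0.40). The libraries differed most from one another in the fibrillar chains: Col1a1 ran from 8.80 to 13.49 on this scale, whereas Col18a1 ran from 10.49 to 11.36. The 11 members below the testing level were the cartilage chains Col2a1, Col9a1, Col9a2, Col9a3 and Col10a1 and the chains Col4a6, Col17a1, Col19a1, Col22a1, Col25a1 and Col26a1, with mean rlog from -1.85 to 2.16.

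The genotype labels were not borne out by the targeted gene in untreated tumours: Setd2 averaged 10.83 ± 0.07 (rlog, SD, n = 7) under the WT label and 10.81 ± 0.07 (n = 6) under the SETD2 KD label, so each direction between genotypes is one between labels. Under VE822 it had 10.03 ± 0.29 (n = 6) and 9.72 ± 0.21 (n = 5). The labels do not say which libraries came from separate animals or cultures, so p-values measure the spread between these libraries only. Some libraries stood apart. The mean rlog of 7 skeletal muscle markers was above 6 in WT untreated replicate 4 and in WT VE822 replicates 1, 2 and 4 (6.65, 9.66, 7.40 and 8.09) and at most 5.42 in the other 20, and SETD2 KD VE822 replicate 4 lay away from its group on the first 2 principal components. Fibroblast markers were present throughout (10 of 10 tested, mean rlog 7.76 to 10.00), as were macrophage and renal epithelial markers. The 5 keratinocyte markers all lay below the testing level, with Krt5 at most at 2.29 and Krt14 at most at 2.40, and so did 5 of 8 cartilage and bone markers, Acan among them (at most -2.20). In bulk tissue, fewer cells of a type and less RNA per cell cannot be told apart.

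The comparison of VE822 with no treatment among libraries labelled WT asks what differed with the drug under that label. Of the fibril-forming chains 7 of 10, the beaded filament chains Col6a2 and Col6a3 and the anchoring chain Col7a1 were higher under VE822, fibronectin was not, and Col4a4 and Col18a1, both of basement membranes, were lower. Of the 34 tested members, 13 were higher and 2 lower (limma, adjusted p under 0.05), against 17.2% higher and 17.5% lower among all 15916 genes. The median difference was 0.30 for the members and 0.01 for all genes tested.

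Col7a1 showed the clearest separation. It had 7.09, 7.83 and 8.29 (lowest, median and highest rlog) in WT untreated libraries and 8.71, 9.20 and 9.66 in WT VE822 libraries. Every VE822 library was above every untreated one. The difference was 1.42 ± 0.19 (log2, SE; limma adjusted p = 4.8e-06), and Col7a1 passed in each of the 24 alternatives run, with differences from 1.12 to 1.52.

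Because Col7a1 rose under both genotype labels and Col3a1 stands for the stromal fibrillar genes, the 250 bases before each annotated start are shown 5′ to 3′ (RefSeq windows, GRCm38.p6, Col7a1 at chr9:108953336-108953585 and Col3a1 at chr1:45311288-45311537, both plus strand). Capitals mark matches, on either strand, to the CCAAT box, to the GC box written GGGCGG, and to the TATA box written TATAAA.
Col7a1: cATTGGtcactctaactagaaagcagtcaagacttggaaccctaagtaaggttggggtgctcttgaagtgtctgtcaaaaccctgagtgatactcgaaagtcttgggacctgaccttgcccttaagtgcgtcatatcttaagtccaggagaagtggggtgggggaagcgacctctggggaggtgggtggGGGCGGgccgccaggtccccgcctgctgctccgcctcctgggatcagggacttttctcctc
Col3a1: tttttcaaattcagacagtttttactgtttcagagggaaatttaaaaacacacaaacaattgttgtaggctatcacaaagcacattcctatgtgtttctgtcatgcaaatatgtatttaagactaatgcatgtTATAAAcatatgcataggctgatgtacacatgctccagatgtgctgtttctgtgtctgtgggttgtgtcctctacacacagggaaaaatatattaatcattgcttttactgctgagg
The Col7a1 window held 1 CCAAT match (read on the opposite strand) and 1 GGGCGG match, and the Col3a1 window held 1 TATAAA match. Of all 32851 windows of 250 bases in the table, 33.9% held CCAAT, 32.7% held GGGCGG and 12.4% held TATAAA on either strand, so such matches are common. Windows were found for 35 of the 45 mouse members.

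Among the fibril-forming chains 7 of 10 tested were higher under VE822. Col1a1 had 11.51, 13.53 and 13.73 (lowest, median, highest) in WT untreated and 13.46, 14.59 and 16.21 in WT VE822 libraries. The groups overlapped: WT VE822 replicates 3 and 6 (13.62 and 13.46) lay within the untreated range, while replicate 4 was the highest of all libraries. The difference was 1.39 ± 0.40 (limma adjusted p = 0.0092). Col1a2, its partner in type I collagen, differed by 1.34 ± 0.40 (adjusted p = 0.013), from 11.05, 13.05 and 13.36 to 12.85, 14.04 and 15.79.

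Col3a1, the type III chain, had 11.16, 12.90 and 13.52 in WT untreated and 12.46, 13.81 and 15.74 in WT VE822 libraries, again with overlap, and differed by 1.17 ± 0.41 (limma adjusted p = 0.031). Col5a2 (0.92), Col5a3 (0.77), Col27a1 (0.67) and Col24a1 (0.47) were also higher. Not past the threshold were Col11a1 (0.78 ± 0.48), a chain of fibril cores, Col5a1 (0.27 ± 0.20) and Col11a2 (0.06 ± 0.13). WT untreated replicate 6 was the lowest and WT VE822 replicate 4 the highest library for Col1a1, Col1a2, Col3a1 and Col5a2. The calls on Col3a1, Col5a2 and Col8a1 were lost without WT untreated replicate 6 (0.91, 0.75 and 0.80) and without WT VE822 replicate 2 (1.10, 0.85 and 1.00) or 4 (0.80, 0.64 and 0.83), and those on Col3a1 and Col8a1 also without WT untreated replicate 7 (1.15 and 1.01). Col5a3 did not pass when any of untreated replicates 3, 5, 6 and 7 or treated replicates 1, 4 and 5 was dropped (0.48 to 0.77), and Col24a1 when any of untreated replicates 1, 3, 6 and 7 or treated replicate 4 was (0.25 to 0.47). For both the smallest difference was that without treated replicate 4.

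**Figure D1:**
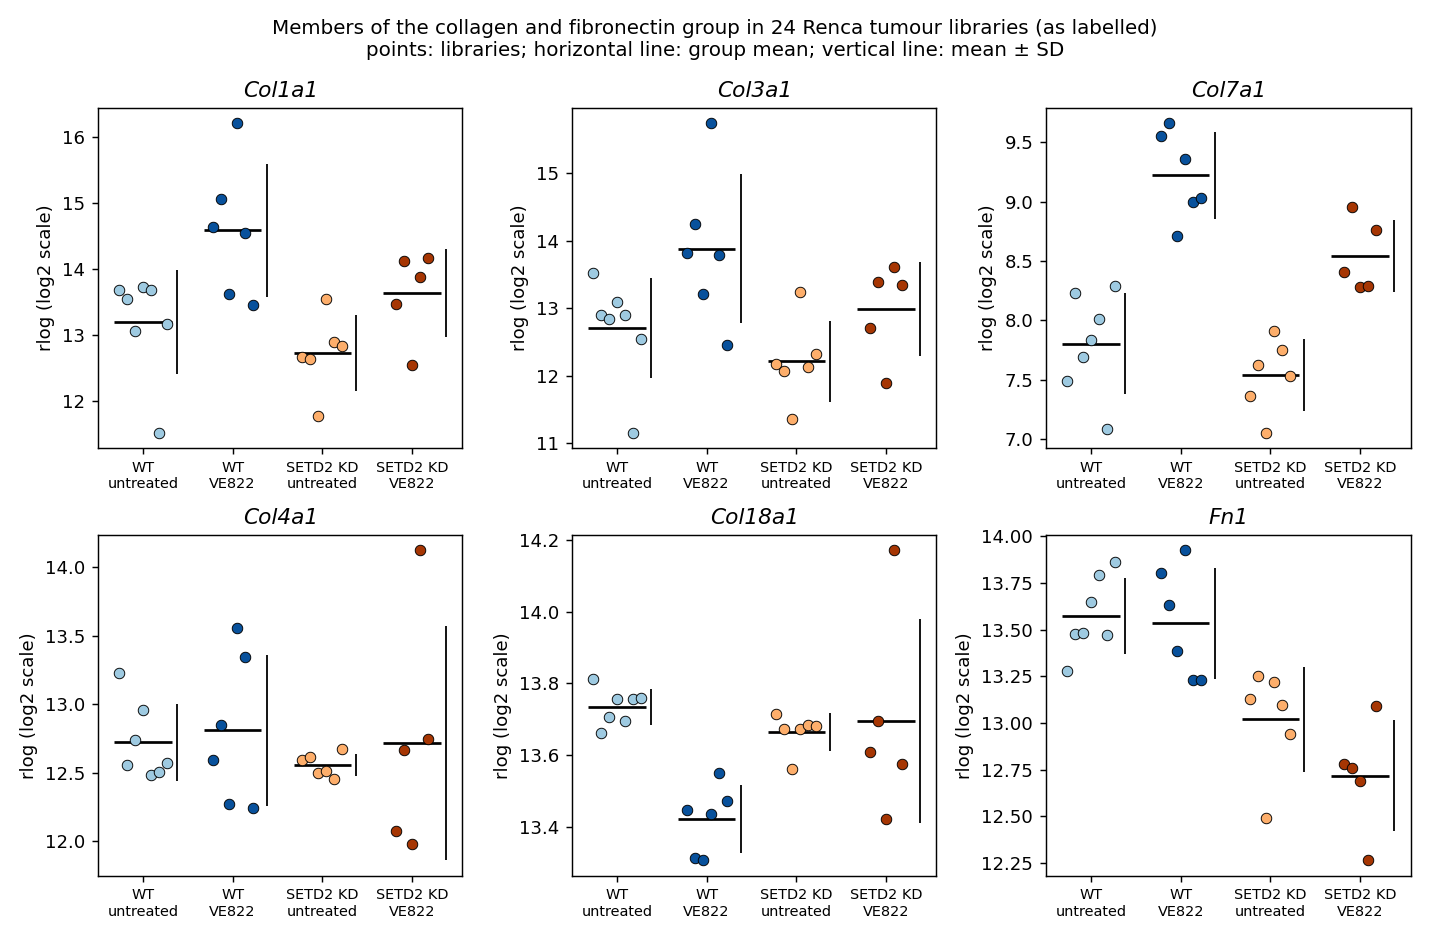
Rlog of 6 members in each tumour library (points, coloured by labelled group) with the group mean (horizontal line) and mean ± SD (vertical line). Col7a1 does not overlap between treatments within either genotype label, Col1a1 and Col3a1 do, and Fn1 does not overlap between genotype labels within either treatment.

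Of the 7 beaded filament chains, Col6a2 (0.94 ± 0.29, limma adjusted p = 0.013) and Col6a3 (0.90 ± 0.25, adjusted p = 0.0083) were higher. Col6a1, Col6a5, Col6a6, Col28a1 and Col6a4 differed by 0.48, 0.30, 0.22, 0.28 and -0.19 without passing. Among chains that sit on fibril surfaces, Col14a1 was higher, from 8.03, 8.57 and 9.20 to 8.94, 9.23 and 10.32 (0.85 ± 0.20, limma adjusted p = 0.0018), in this and in all 24 alternatives. Col12a1 (0.13), Col16a1 (-0.00) and Col20a1 (0.30) did not pass. Col8a1, a chain of short-chain networks around vessels, was higher by 1.06 ± 0.37 and its partner Col8a2 differed by 0.49 ± 0.29 without passing. Of the transmembrane collagens Col23a1 was higher (0.83 ± 0.23) and Col13a1 was not past the threshold (0.29 ± 0.23).

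Among basement membrane chains, Col4a1 (0.09 ± 0.25), Col4a2 (0.10 ± 0.23), Col4a3 (0.05 ± 0.16) and Col4a5 (0.05 ± 0.27) did not pass, nor did Col15a1 (0.22 ± 0.23). Col4a4 was lower, from 11.78, 11.99 and 12.09 to 11.27, 11.49 and 11.83, with overlap and a difference of -0.41 ± 0.15 (limma adjusted p = 0.036), a call lost in 12 of 24 alternatives, 8 of which left out 1 library (WT untreated replicate 2, 3, 4 or 7, WT VE822 replicate 1, 2, 3 or 4). Col18a1 was lower with no overlap, from 13.66, 13.76 and 13.81 to 13.31, 13.44 and 13.55 (-0.31 ± 0.08, limma adjusted p = 0.0025). Col18a1 lies on chromosome 10, whose 715 tested genes had a median difference of -0.20. Each chromosome's median, taken over genes with a mean rlog of at least 8, was then removed from each library. Col18a1 now differed by -0.05 (limma adjusted p = 0.481). Col6a1, also on chromosome 10 (0.74), and Col20a1 (0.37) became higher, and Col4a4 did not pass. The count was 15 higher and 0 lower, against 3257 higher and 2037 lower of all 15916 genes.

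Fn1 had 13.28, 13.48 and 13.86 in WT untreated and 13.23, 13.51 and 13.92 in WT VE822 libraries. The groups covered nearly the same range, and the difference was -0.04 ± 0.14 (limma adjusted p = 0.853).

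Some markers of other cell types were also called between these groups. Their counts are to be read against 17.2% higher and 17.5% lower among all genes, which several of them are near. The mean rlog of the 10 fibroblast markers ran from 7.76 to 9.10 in WT untreated and from 8.09 to 10.00 in WT VE822 libraries. Lum, a small proteoglycan of collagen fibrils (1.25), and Pdgfra, a receptor for platelet-derived growth factor (1.05), were higher, the transcription factor Twist2 was lower (-0.74), and the other 7 did not pass. The skeletal muscle list ran from 4.17 to 6.65 and from 4.58 to 9.66, with 2 of 7 markers higher (Myom2 by 2.72, Mylpf by 0.80), while 0 of 7 endothelial and 0 of 7 pericyte and smooth muscle markers passed. All 7 renal epithelial markers were called, 2 higher (Krt19 by 1.46, Epcam by 1.31) and 5 lower (among them Krt18, -0.84), with a list mean from 10.85 to 11.17 untreated and from 10.79 to 11.08 under VE822. Of the macrophage markers 2 of 5 were lower (Mrc1 -0.36, Cd68 -0.20), 1 of 5 adipocyte markers (Lep, 0.43) and 1 of 3 tested Schwann cell markers (Sox10, 0.64) were higher, and 1 of 3 tested cartilage and bone markers (Runx2, -0.25) was lower. Pericyte, endothelial and adipocyte list means ran up to 9.52, 9.42 and 6.96 in WT VE822 replicate 4, the highest of that group in each.

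With the fibroblast list mean as a covariate 5 members were higher (Col7a1 1.28, Col1a1 0.63, Col14a1 0.57, Col1a2 0.54, Col6a3 0.45) and Col4a4 and Col18a1 were lower, against 15.4% and 15.6% of all genes. With the skeletal muscle list mean as a covariate Col7a1 (1.13) and Col14a1 (0.61) were higher and Col18a1 was lower, against 12.4% and 13.5%. Without the 5 libraries that stood apart, a choice made after seeing the data, Col7a1 (1.12) and Col14a1 (0.54) were higher and Col18a1 (-0.29) and Col4a4 (-0.30) lower, against 14% and 14.6%. Col1a1 was then 0.76 higher (limma adjusted p = 0.208) and Col3a1 0.51 (adjusted p = 0.417). Leaving out 1 library at a time gave 8 to 16 members higher: 8 without WT untreated replicate 6 and 9 without WT VE822 replicate 4. Of all 15916 genes, 2483 and 2374 were higher without these libraries. Whether the makeup of the samples sets the fibrillar differences was not tested beyond these fits.

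**Figure D2:**
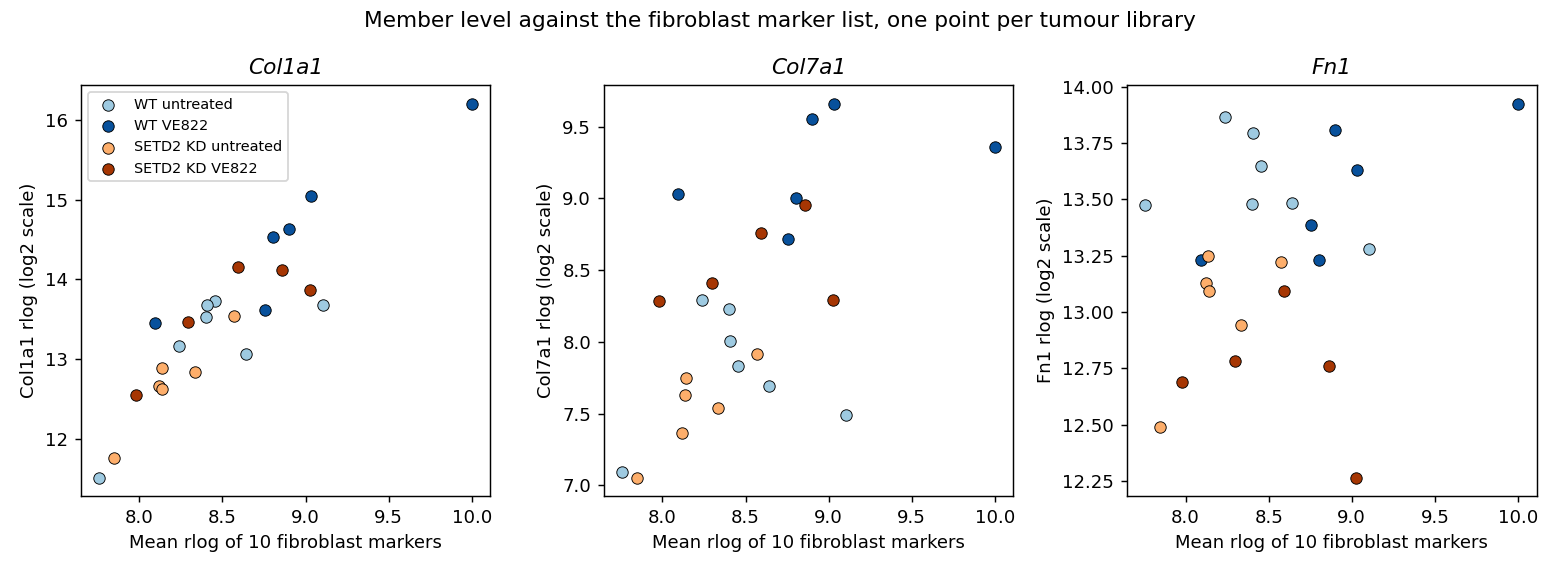
Rlog of Col1a1, Col7a1 and Fn1 (vertical axes) against the mean rlog of 10 fibroblast markers (horizontal axes), with 1 point per tumour library coloured by labelled group. Col1a1 climbs with the marker mean up to WT VE822 replicate 4 at 10.00, Col7a1 is higher in every treated than untreated library of the same label, and Fn1 is lower in every SETD2 KD than WT library of the same treatment.

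Among libraries labelled SETD2 KD, VE822 was compared with no treatment in the same way. Col7a1 and Col14a1 were higher and no member was lower, so 2 of 34 were called higher against 10.6% of all genes, and 0 lower against 11.6%. The median difference was 0.27 for the members and 0.01 for all genes tested. Col7a1 had 7.05, 7.58 and 7.91 in SETD2 KD untreated libraries and 8.41, 8.95, 8.28, 8.29 and 8.76 in SETD2 KD VE822 replicates 1 to 5. The groups did not overlap, and the difference was 1.00 ± 0.20 (limma adjusted p = 0.0010), called in all 22 alternatives run (0.90 to 1.07).

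Col14a1 had 7.77, 8.08 and 8.35 untreated and 8.48, 8.83, 8.96, 8.29 and 8.87 under VE822. Replicate 4 alone fell inside the untreated range. The difference of 0.59 ± 0.21 was close to the threshold (limma adjusted p = 0.049), and 11 of 22 alternatives lost it, 7 of them by leaving out 1 library (SETD2 KD untreated replicate 2, 3, 4 or 5, SETD2 KD VE822 replicate 2, 3 or 5).

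Type I and type III chains did not pass under this label. Col1a1 had 11.76, 12.75 and 13.54 untreated and 13.47, 14.11, 12.55, 13.87 and 14.16 under VE822, a difference of 0.91 ± 0.43 (limma adjusted p = 0.140), and Col3a1 differed by 0.77 ± 0.45 (adjusted p = 0.239). Replicates 1 and 3 of the treated libraries lay within the untreated range for both genes, Col3a1 having 11.36, 12.15 and 13.24 untreated and 12.70, 13.39, 11.90, 13.61 and 13.34 under VE822. Col1a2, Col8a1, Col6a3, Col5a2 and Col6a2 differed by 0.91, 0.95, 0.66, 0.58 and 0.56 without passing. Marker calls under this label are to be read against 10.6% higher and 11.6% lower among all genes. Fibroblast list means ran from 7.85 to 8.57 untreated and from 7.98 to 9.03 under VE822, with 1 of 10 markers lower (Twist2, -0.57). Of these 10, 8 had a difference above 0, and the list's median difference was 0.52. Renal epithelial markers had 1 higher (Epcam, 1.00) and 4 lower of 7 (among them Krt18, -0.91), and 2 of 5 macrophage markers were lower (Mrc1 -0.39, Cd68 -0.28). Lep of adipocytes (0.57) and Sox10 of Schwann cells (0.75) were higher. Of the skeletal muscle markers Myom2 was higher (2.56), but it was the only 1 of 7 above 0, and the list's median difference was -0.34. The part of these markers in the collagen differences was not tested.

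SETD2 KD VE822 replicate 4 departed from its group in the basement membrane chains. Col4a1 was at 12.08, 12.66, 11.98, 14.12 and 12.75 in replicates 1 to 5, and Col4a4 at 11.33, 11.35, 11.30, 12.54 and 11.22. Col4a5 was at 9.30, 9.14, 9.12, 6.81 and 9.28. Replicate 4 was thus the highest for Col4a1 and Col4a4 and the lowest for Col4a5, and its endothelial and pericyte list means (9.60 and 9.30) were the highest of its group. Without that library Col4a4 was lower by -0.42 (limma adjusted p = 0.0021) in place of -0.17 (0.512), and with chromosome medians removed Col18a1 was 0.22 higher (adjusted p = 0.013) in place of 0.03 (0.833). The remaining members differed by -0.36 to 0.53 without passing.

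**Figure D3:**
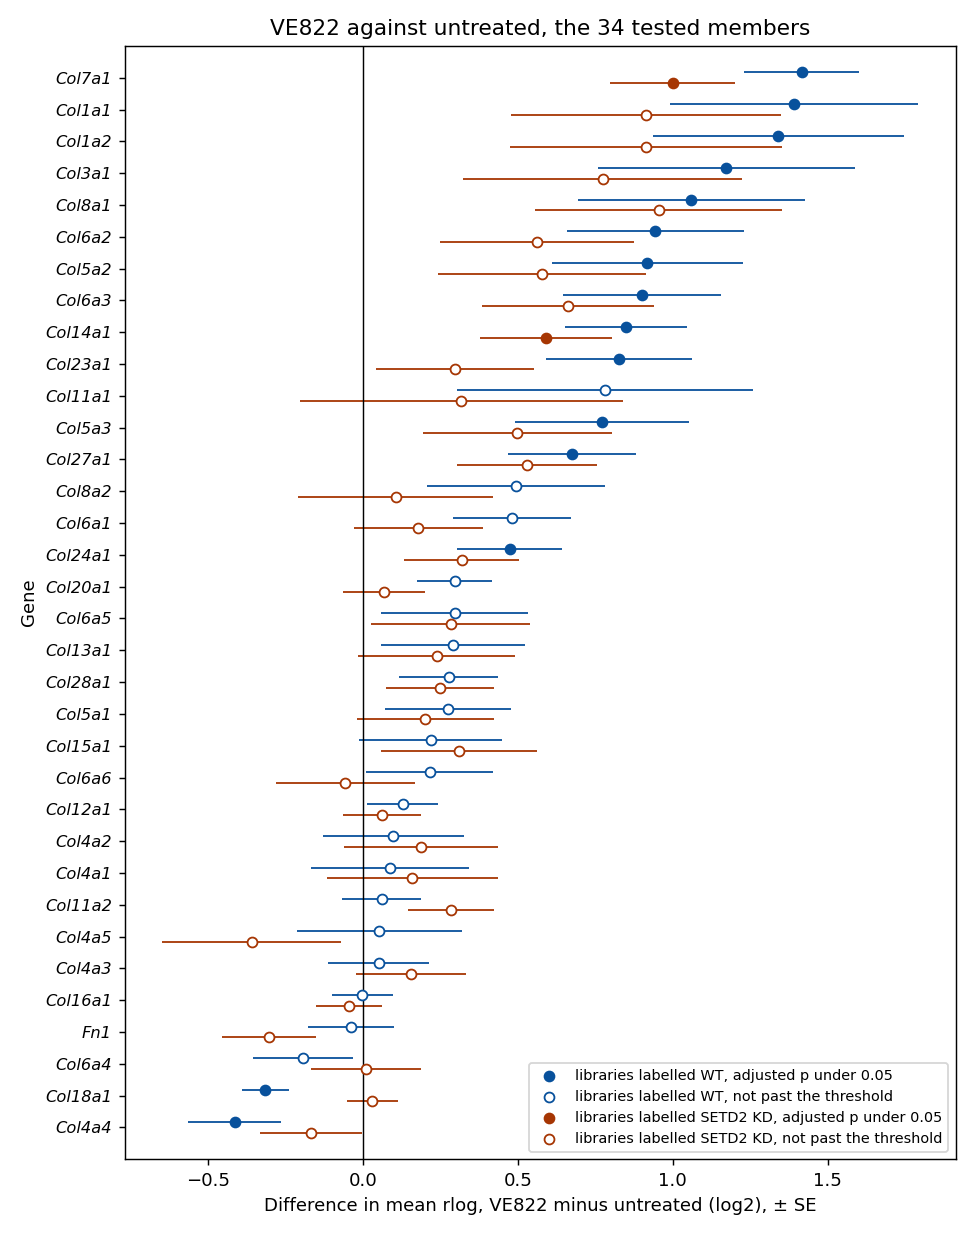
Difference in mean rlog, VE822 minus untreated (horizontal axis, log2, bars ± SE), for the 34 tested members (vertical axis) in libraries labelled WT (blue) and SETD2 KD (brown), filled where the limma adjusted p was under 0.05. Col7a1 is at the top in both at 1.42 and 1.00, and 13 members in the WT label but 2 in the SETD2 KD label are filled to the right of 0.

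Whether the response to VE822 differed between genotype labels was tested as the interaction term. No member passed (0 of 34; 0% higher and 0% lower among all genes by limma, with 1452 of 15916 genes at an unadjusted p under 0.05), in the reported fit or in any alternative run. The interaction was -0.42 ± 0.28 for Col7a1, -0.48 ± 0.59 for Col1a1, -0.40 ± 0.61 for Col3a1 and -0.26 ± 0.21 for Fn1. It was 0.35 ± 0.11 for Col18a1 (limma adjusted p = 0.438). A larger number of calls under the WT label is therefore not shown to be a difference between labels. The 2 VE822 comparisons have no library in common.

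Comparing the genotype labels, Fn1 was the member that set them apart most clearly, at lower values in libraries labelled SETD2 KD, but it did not pass the threshold over all genes. Without treatment it had 13.28, 13.48 and 13.86 in libraries labelled WT and 12.49, 13.11 and 13.25 in those labelled SETD2 KD. Every SETD2 KD library was below every WT library. The difference was -0.55 ± 0.14 (limma unadjusted p = 0.00057, adjusted p = 1.00). Limma called 0 of 34 members and 0% of all genes in either direction, with 512 genes at an unadjusted p under 0.05. Fn1 was called with library weights (-0.58, adjusted p = 0.033), 1 of 24 alternatives, whose differences ran from -0.60 to -0.45.

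Under VE822, Fn1 had 13.23, 13.51 and 13.92 in libraries labelled WT and 12.78, 12.76, 12.69, 12.26 and 13.09 in those labelled SETD2 KD, again without overlap. The difference was -0.82 ± 0.15 (limma unadjusted p = 1.6e-05, adjusted p = 0.054). Limma called 0 of 34 members, with 0.00628% of all genes higher and 0.00628% lower, 1 gene each, and 2031 genes at an unadjusted p under 0.05. Fn1 was called in 5 of 22 alternatives: with chromosome medians removed (-0.85, adjusted p = 0.046) and without WT VE822 replicate 3 (-0.85) or 5 (-0.88) or SETD2 KD VE822 replicate 1 (-0.83) or 5 (-0.91). Over the 22 the difference ran from -0.91 to -0.45 and the adjusted p from 0.030 to 0.839. The smallest difference was that without the 5 libraries that stood apart (-0.45, adjusted p = 0.407).

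Most other members were also lower under the SETD2 KD label without passing. The median over the 34 was -0.21 without treatment and -0.36 under VE822, against -0.00 for all genes in each. Without treatment 3 of 34 were above 0 (Col4a5, Col6a6 and Col20a1). Under VE822, Col1a1 differed by -0.95 ± 0.43, Col1a2 by -0.94 ± 0.44, Col14a1 by -0.70 ± 0.21 and Col7a1 by -0.68 ± 0.20 (limma adjusted p from 0.194 to 0.376). The median over the 10 fibroblast markers was -0.22 without treatment and -0.38 under VE822, with 0 of 10 called in either.

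Most partner chains moved together from library to library within groups. No background of other gene pairs was run, so this likeness is not shown to be particular to partner chains. Deviations from the group means were correlated over the 24 libraries for 10 pairs, with a two-sided permutation test within groups adjusted over the 10. Col1a1 and Col1a2 had a Pearson r of 0.99 and a Spearman rho of 0.97 (permutation p = 1e-05 for each, the smallest it can give, adjusted p = 2e-05). Col4a1 and Col4a2 had 0.99 and 0.97, with the same p. Col1a1 and Col3a1 (r = 0.96, rho = 0.92), Col5a1 and Col5a2 (0.94, 0.91), Col8a1 and Col8a2 (0.92, 0.91), Col4a3 and Col4a4 (0.90, 0.79), Col6a1 and Col6a2 (0.86, 0.80) and Col6a1 and Col6a3 (0.84, 0.68) were also alike, with adjusted permutation p from 2e-05 to 0.0036.

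Fn1 and Col1a1 were linked less tightly (r = 0.51, rho = 0.48, adjusted permutation p = 0.023 and 0.034). Col11a1 and Col11a2 showed no detectable link (r = 0.11, rho = 0.16, adjusted permutation p = 0.646 and 0.464). Without the 2 libraries farthest from the median of the first gene, r was 0.77 for Col4a3 and Col4a4, 0.98 for Col4a1 and Col4a2, 0.99 for Col1a1 and Col1a2, 0.94 for Col1a1 and Col3a1, 0.75 for Col6a1 and Col6a3 and 0.53 for Fn1 and Col1a1. It was 0.93, 0.92, 0.82 and 0.11 for Col5a1 and Col5a2, Col8a1 and Col8a2, Col6a1 and Col6a2, and Col11a1 and Col11a2. SETD2 KD VE822 replicate 4 and WT VE822 replicate 4 were the pair left out for Col4a1.

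The type IV genes that moved together are neighbours read in opposite directions from a shared start region. Whether this layout bears on their likeness was not tested. Col1a1 and Col1a2, on chromosomes 11 and 6, had an r of 0.99. Col4a3 (chromosome 1, 82586921 to 82722059, plus strand) and Col4a4 (82448423 to 82586849, minus strand) lie 71 bases apart, and Col4a1 (minus strand) and Col4a2 (plus strand) overlap by 22 bases in GENCODE vM21. The bases between Col4a4 and Col4a3 (chr1:82586850-82586920, minus strand) are shown 5′ to 3′ from the RefSeq windows of GRCm38.p6, since they are all that separates this pair.
Col4a4-Col4a3: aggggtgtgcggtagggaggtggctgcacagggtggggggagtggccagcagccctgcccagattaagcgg
These 71 bases held no match to the same 3 motifs. Reads in the overlap of Col4a1 and Col4a2 cannot be told apart where the counting took no account of strand, which no source used here states.

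**Figure D4:**
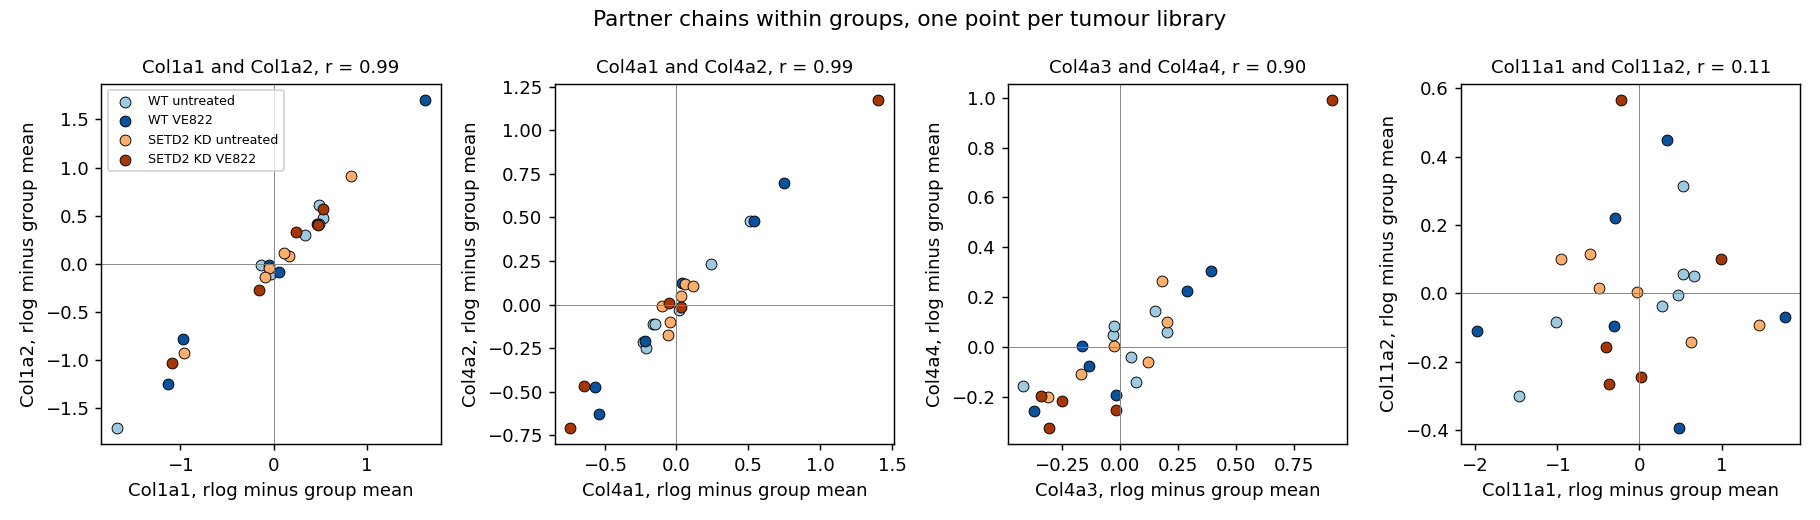
Rlog minus the group mean of 4 pairs of partner chains, with 1 point per tumour library coloured by labelled group. The points of Col1a1 and Col1a2 and of Col4a1 and Col4a2 fall along a line (r = 0.99 each), those of Col4a3 and Col4a4 less closely (r = 0.90), and those of Col11a1 and Col11a2 show no line (r = 0.11).

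Genes that make, process and degrade collagen gave mixed counts under VE822 in libraries labelled WT. All directions here are limma calls, to be read against 17.2% higher and 17.5% lower among all genes, which several of these counts are near. Of 17 genes of collagen modification and folding, 4 were higher and 1 lower, with the prolyl hydroxylases P4ha3 (0.70) and P3h3 (0.64) higher and P4ha1 lower (-0.28). Of 8 secretion genes 1 was higher, Creb3l1 (0.89), a transcription factor of secretory cells, and 4 were lower, among them Mia2 (-0.47), Creb3l2 (-0.33) and Sec24d (-0.27). Procollagen cleavage had 3 higher and 1 lower of 6, with the propeptidases Adamts2 (0.74) and Adamts14 (0.68) and the enhancer Pcolce2 (0.39) higher and Pcolce lower (-0.30). Cross-linking enzymes had 2 higher, Loxl2 (0.90) and Loxl1 (0.89), and 1 lower, Loxl4 (-0.38), of 6.

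Receptors had 5 higher and 3 lower of 15. Mrc2, an endocytic collagen receptor (1.01), Lair1, an inhibitory collagen receptor of leukocytes (0.51), and the integrin chain Itgb3 (0.41) were higher, and the collagen receptor kinase Ddr2 was lower (-0.30). Matrix degradation had 3 higher and 1 lower of 16: the collagenase Mmp13 (1.45), cathepsin K (Ctsk, 1.04) and the membrane protease Mmp14 (0.71) were higher, and Timp2, a protease inhibitor, was lower (-0.20). The TGF-beta axis, a main inducer of collagen genes, had 4 higher and 3 lower of 17, with Ccn2 (1.28), Ltbp2 (0.74) and Tgfbr3 (0.64) higher and the ligand Tgfb2 lower (-0.79). Other matrix partners had 5 higher and 2 lower of 19, with Thbs2 (1.17), Fbn2 (0.88) and Fbn1 (0.77), parts of matrix fibres, and the laminin chain Lamb1 (0.69) among the higher.

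In libraries labelled SETD2 KD, where 10.6% of all genes were higher and 11.6% lower, modification had 2 higher of 17 (P3h2 0.41, P3h1 0.22), secretion 1 higher (Sec23a 0.18) and 2 lower of 8 (Mia2 -0.63, Sar1a -0.15), cleavage 1 higher (Adamts14 0.54) and 1 lower of 6 (Pcolce -0.26), and cross-linking 1 higher of 6 (Loxl2 0.73). Receptors had 3 higher (Lair1 0.79, Itga1 0.39, Itgb3 0.37) and 1 lower of 15 (Itgb1 -0.15), degradation 2 higher (Mmp13 1.07, Ctsk 0.83) and 1 lower of 16 (Timp2 -0.20). The TGF-beta axis had 5 higher and 1 lower of 17, led by Ccn2 (1.13), Tgfb2 (-1.05), Tgfbr3 (0.59) and Tgfbi (0.36), and other partners 3 higher (Lamb1 1.07, Hspg2 0.64, Lamc1 0.20) and 1 lower of 19 (Fbln1 -0.39). Between genotype labels no gene of these lists was called, without treatment or under VE822. No gene of these lists passed the interaction test either.

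The 786-O comparison asks what the CHK1 inhibitor changed in tumour cells grown alone. These cells had a different collagen makeup from the tumours: by counts recovered from the deposited values (20834400 to 23956007 per library), type I and III transcripts were scarce, with COL1A1 at 30 and 55 counts untreated and 38 and 26 treated, COL1A2 at 0, 0, 2 and 0 and COL3A1 at 0, 1, 1 and 2. Of the 45 members 12 had at least 100 counts in every library and 9 had 0 in both untreated libraries. Fibronectin, COL6A3, COL7A1 and the type IV chains COL4A1 and COL4A2 had the most counts. Of the 45, 7 were higher and 4 lower with the inhibitor (limma, adjusted p under 0.05), against 7.05% higher and 6.16% lower among all 29353 rows. Among rows with a mean value of at least 5 only, 5 members were higher and 6 lower, against 3016 and 3210 of 12731 rows. The median difference was 0.03 for the members and 0.08 for all rows.

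Summed over the 4 libraries, FN1 had more counts than any other gene. It had 282630 and 279735 counts in the untreated libraries, 1.18% (95% Wilson interval 1.176 to 1.184) and 1.19% (1.186 to 1.195) of all counts, and 108749 and 130254 in the treated ones, 0.507% (0.504 to 0.510) and 0.625% (0.622 to 0.629). Both treated libraries were below both untreated ones. On the variance-stabilised scale FN1 fell by 1.02 ± 0.12 (log2, SE; limma adjusted p = 0.028), or 2.10-fold in CPM (counts scaled to a common library total). Intervals cover counting error only.

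A further 3 members fell, COL8A1 with 139 and 176 CPM untreated and 46.4 and 54.0 treated (-1.58 ± 0.15, limma adjusted p = 0.025), COL4A5, an X-linked type IV chain, with 557 and 470 counts against 189 and 190 (-1.17 ± 0.13, adjusted p = 0.026), and COL18A1 with 167 and 230 CPM against 94.8 and 99.1 (-0.96 ± 0.17, adjusted p = 0.048). In each the treated pair lay below the untreated pair.

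COL17A1, a transmembrane collagen of epithelial anchoring junctions, rose most among members with counts in every library, from 0.626 and 1.02 CPM to 6.29 and 12.2 (2.95 ± 0.39, limma adjusted p = 0.032), 11.2-fold in CPM. COL12A1, which sits on fibril surfaces, rose from 70.7 and 70.1 to 165 and 184 (1.36 ± 0.08, adjusted p = 0.023), 2.48-fold. COL11A2 rose from 1.00 and 0.724 to 2.70 and 2.78 (1.36 ± 0.19, adjusted p = 0.034) and COL15A1 from 4 and 4 counts to 14 and 20 (1.21 ± 0.22, adjusted p = 0.049). In each the treated values were above the untreated ones.

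The other 3 higher members had no counts in either untreated library: COL5A3 had 17 and 12 counts when treated, COL20A1 had 6 and 4, and COL26A1 had 6 and 3. Against a floor of 3 counts over the untreated pair these were at least 10.8-fold, 3.74-fold and 3.37-fold higher, with limma adjusted p of 0.024, 0.033 and 0.046. A row with no untreated counts can only be higher, so these p-values are no test of direction. The members' median difference was 0.03 also with these at their bounds.

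COL7A1 had 765 and 642 CPM untreated and 875 and 991 treated (0.46 ± 0.13, limma adjusted p = 0.106), COL6A3 had 1169 and 1091 against 1062 and 1008 (-0.07 ± 0.07), COL4A1 differed by -0.26 ± 0.24 and COL4A2 by -0.12 ± 0.12. None of these passed. COL14A1 had 228 and 552 counts untreated and 74 and 98 treated (-1.73 ± 0.48, adjusted p = 0.099). With the 2 experiments as a replicate block, COL14A1 (adjusted p = 0.020), COL4A4 (-0.98, 0.019) and COL6A1 (-0.82, 0.020) were called lower and COL16A1 higher (0.80, 0.036), while COL26A1 lost its call (0.054). The remaining 26 members differed by -0.86 to 1.02 without passing, and 12 of all 45 had under 10 counts over the 4 libraries. With 1 library left out, the lone library of its group is assumed to vary as the other pair does. Those fits therefore cannot decide which calls hold. For COL5A3, COL20A1 and COL26A1 the untreated pair had no counts and so showed no spread. Over the alternatives run, the difference ran from -1.17 to -0.87 for FN1 and from 1.28 to 1.44 for COL12A1. It ran from -1.73 to -1.43 for COL8A1, from -1.30 to -1.05 for COL4A5 and from -1.17 to -0.75 for COL18A1. For COL17A1 it ran from 2.50 to 3.42, for COL11A2 from 1.19 to 1.66 and for COL15A1 from 1.02 to 2.10. With no variance trend, 0 of the 45 members were called, and no row among all 29353.

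**Figure D5:**
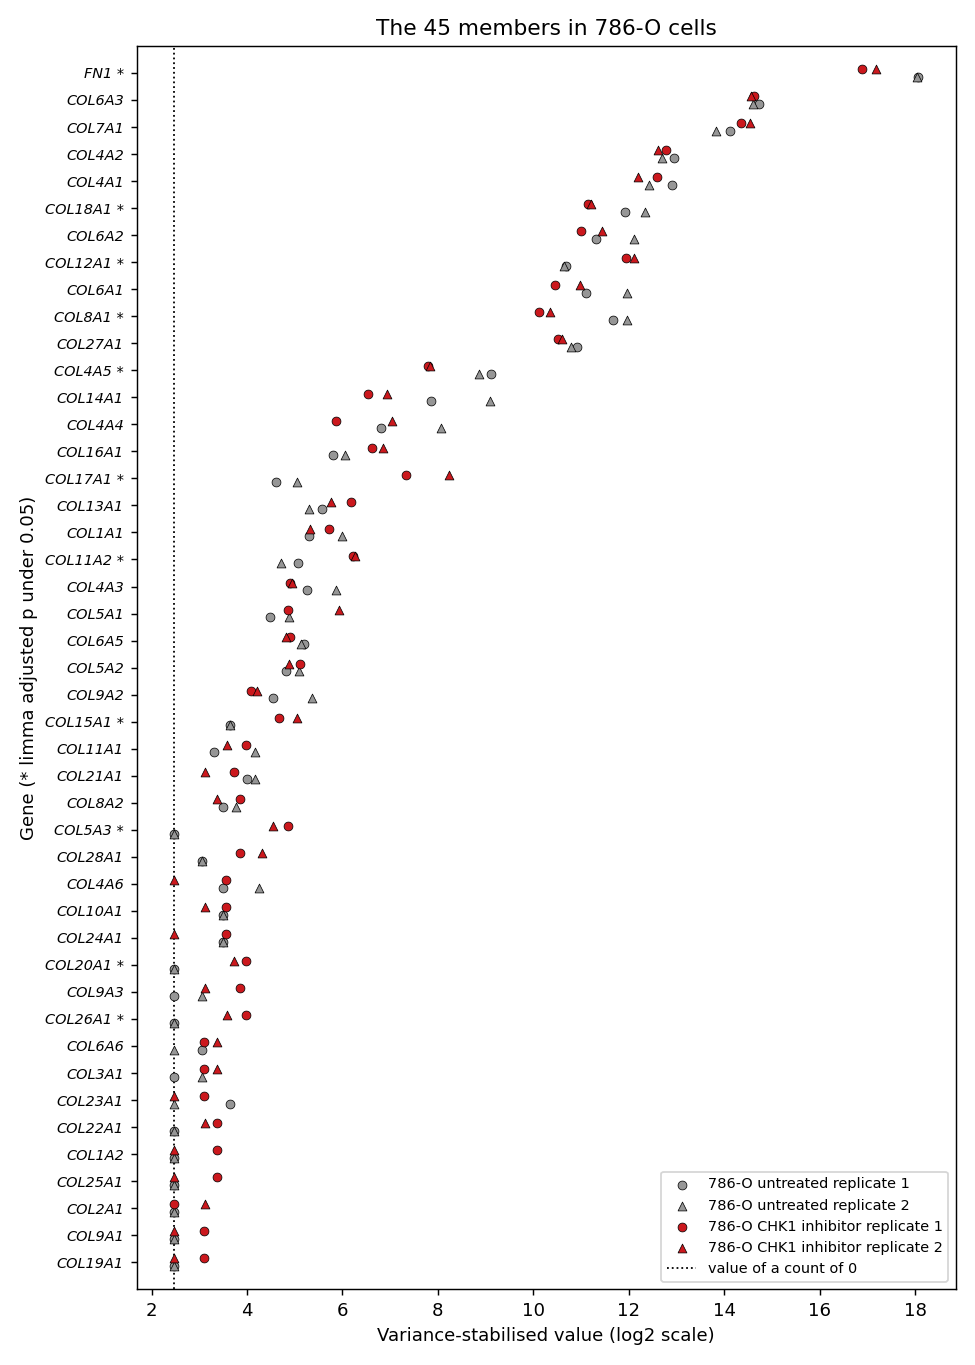
Variance-stabilised values (horizontal axis, log2 scale) of the 45 members (vertical axis) in the 4 libraries of 786-O cells, grey for untreated and red for the CHK1 inhibitor, circles for replicate 1 and triangles for replicate 2, with the value of a count of 0 dotted at 2.47. FN1 is at the far right and lower when treated, COL17A1 is higher when treated, and COL1A2 and COL3A1 lie at or near the dotted line.

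Pathway genes in 786-O were called in both directions, against 7.05% higher and 6.16% lower among all rows, and counts of 1 in a list are near that share. Of 17 modification genes 0 were higher and 3 lower: the prolyl hydroxylase P4HA2 (-1.51), CRTAP (-0.77), part of a prolyl hydroxylation complex, and the lysyl hydroxylase PLOD1 (-0.54). Degradation had 4 higher and 2 lower of 18. The matrix protease genes MMP3 and MMP10 had 0 counts in both untreated libraries and so could only be higher. They were at least 20.9-fold and 2.62-fold higher when treated (56 and 7 counts). MMP9 was higher by 1.22, and the inhibitor TIMP2 was lower (-1.41). Of the TGF-beta axis CTGF, a textbook TGF-beta target, was higher (1.53) and SMAD2, which carries the TGF-beta signal into the nucleus, was lower (-0.49).

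Receptors had 2 higher and 3 lower of 15, with DDR2 (1.38) and the heparan sulphate proteoglycan SDC4 (0.64) higher and the integrin chain ITGB3 (-1.24) and MRC2 (-0.76) lower. ADAMTS3 was the 1 lower of 8 cleavage genes (-1.40), LOXL2 the 1 lower of 6 cross-linking genes (-0.54), and SAR1B the 1 higher of 7 secretion genes (0.44). Other partners had 1 higher (NID1, 0 against 4 counts) and 2 lower of 20 (LAMA5 -1.02, HSPG2 -0.77). With 0 untreated counts, NID1 too could only be higher. With the block MMP10 and NID1 lost their calls (limma adjusted p = 0.062 and 0.112). Of 7 renal epithelial markers, the cells' own type, 3 were lower (PAX2 -1.84, CDH16 -1.79, KRT19 -1.42). No fibroblast, endothelial or pericyte marker with counts was called (0 of 7, 0 of 6 and 0 of 6).

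The members called both in 786-O cells and in libraries labelled WT under VE822 were the genes of type VIII alpha 1 (COL8A1 -1.58, Col8a1 1.06), type XVIII (COL18A1 -0.96, Col18a1 -0.31) and type V alpha 3 (COL5A3, at least 10.8-fold higher, Col5a3 0.77), chosen for mention after their values were seen. The Col18a1 call did not hold with chromosome medians removed, and the Col5a3 and Col8a1 calls were lost without single libraries. In 786-O cells the calls on COL8A1, COL18A1 and COL5A3 did not hold with no variance trend. COL5A3 had no counts in the untreated cells and so could only be higher. In libraries labelled SETD2 KD none of these mouse genes passed. The 2 systems differ in species, drug, dose and time, so their values are given side by side and no test compares them.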

How the data were processed

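RNA sequencing covered 24 Renca tumour libraries and 4 libraries of 786-O cells. The authors deposited log2-scale values, regularised (rlog) in mouse and variance-stabilised in human, and per the submitters' processing notes used FastQC, TopHat, HTSeq and DESeq2 with builds hg38 and GRCm38. Strandedness is not given in the sources used here, and mouse depth is unknown. Whole human counts were recovered from the deposited log2 values (100% whole within 0.1 below 1000 counts). Of mouse gene IDs, 97.97% matched GENCODE vM21.

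Limma 3.58.1 (R 4.3.3) with a mean-variance trend was fitted to 15916 mouse genes with a mean rlog of at least 3, with 4 group means, and to 29353 human rows, with Benjamini-Hochberg adjustment over all of them and a threshold of 0.05. It was tested on simulated data with independent normal noise, in which 786-O changes were placed only in rows with a mean of at least 5. Such data do not cover changes in 786-O members of low counts, nor libraries that stand apart. Members and gene lists were chosen with earlier results of these data known. All members are accounted for, and each pathway list is given by its counts and up to 4 called genes of largest change. 1 called gene and its list's count are not reported here. Alternatives changed the filter, trend, weights, groups fitted, normalization, covariates and libraries. The replicate numbers of 786-O mark 2 separate experiments per the series design text. The deviations of same-numbered libraries correlated at 0.158 over 29353 rows and at 0.511 over the 12731 with a mean of at least 5. Pair correlations used 100000 permutations within groups.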

Additional observations from a re-analysis of the deposited data

Results flagged for a closer look

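Among 136 groups of 5 to 7 tumour libraries (34 members in 4 groups), 14 held a library far from the others by Dixon's test at its 95% level, which chance alone gives in about 5% of groups.

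WT untreated replicate 6 was low in the fibrillar chains: Col1a1 was at 11.51 against 13.06 in the nearest library, Col1a2 at 11.05 against 12.65, Col3a1 at 11.16 against 12.54 and Col5a2 at 9.45 against 10.34. Its fibroblast list mean of 7.76 was the lowest of its group.

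SETD2 KD VE822 replicate 4 was far from its group in the basement membrane chains, with Col4a3 at 10.40 against 9.47, Col4a4 at 12.54 against 11.35 and Col4a5 at 6.81 against 9.12, and in Col6a6, at 4.64 against 5.64.

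WT untreated replicate 1 had Col15a1 at 10.23 against 9.69, Col4a3 at 9.17 against 9.55 and Col4a5 at 8.41 against 8.92. The other 3 were Col24a1 in WT VE822 replicate 4, at 4.87 against 3.74, Col18a1 in SETD2 KD untreated replicate 3, at 13.56 against 13.67, and Col5a2 in SETD2 KD untreated replicate 4, at 10.91 against 10.08.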

How the results depend on the processing

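Under VE822 in the WT label, 15 members were called, 7 with the fibroblast covariate, 3 with the muscle covariate and 4 without the 5 libraries that stood apart, and 10 to 18 with 1 library left out. In the SETD2 KD label 2 were called, and 1 with no filter, with no variance trend, with quantile normalization or with the fibroblast covariate. There were 4 with library weights or without the 5 libraries, 5 with only the groups compared, and 1 to 3 with 1 library left out. Among all 15916 genes the reported fit called 1688 higher and 1852 lower. Library weights gave 2554 and 2635, leaving out the 5 libraries 2420 and 2337, and only the groups compared 1505 and 1509. Between genotype labels 0 were called, 1 with library weights (untreated) and 1 with chromosome medians removed (VE822). With 1 library left out there were 0 untreated and 0 to 1 under VE822. Among all genes library weights gave 7 higher and 4 lower (untreated), and chromosome medians removed 2 higher and 4 lower (VE822). The interaction gave 0 throughout. In 786-O cells 11 were called, 14 with the replicate block and 0 with no variance trend (8654 genes at an unadjusted p under 0.05). Among all 29353 rows the reported fit called 2069 higher and 1809 lower. The block gave 2732 and 2850, and the fit with no variance trend 0 and 0. The sign turned for Sar1a with chromosome medians removed (0.041 in SETD2 KD, 0.094 in WT, in place of -0.15 and -0.17) and for Mylpf in WT (0.80) with the muscle covariate (-0.045) and without the 5 libraries (-0.00079). The cause was not tested. Leaving out the 5 libraries, or both replicate 4 libraries of VE822, was chosen after seeing the data. Unknown mouse depth limits the precision of low members, and 2 libraries per group that of 786-O.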
